A study of Mus musculus with 9 samples.

Results

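The genes described here are those of the unfolded protein response and of the heat shock response, the programmes with which a cell meets misfolded protein in its endoplasmic reticulum and in its cytosol. A list of 35 genes was taken by name, and a gene was kept where a probe set of the array is annotated to that gene symbol alone. Of these, 33 were measured, among 18193 genes in all, and Hsf1 and Hsp90ab1 were not analysed here. The 33 comprise 22 genes of the endoplasmic reticulum branch (sensors and transcription factors, chaperones and folding enzymes, degradation factors, and targets of ATF4 and CHOP) and 11 chaperones of the cytosol and mitochondria. No measured value was used to pick them by rule.

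The samples were T cells of C57BL/6 mice after 24 h of culture, in 3 groups of 3 arrays. In syngeneic culture the T cells met dendritic cells of C57BL/6, their own strain, and in allogeneic culture dendritic cells of BALB/c, at 20 T cells per dendritic cell. In the third group, antibodies to CD3e and CD28 were added at 0.1 µg/ml, which drives the T cell receptor and its co-stimulatory receptor without antigen. In every group the cells were incubated with beads against CD11c, T cells were purified magnetically by negative selection and crosslinked with UVA light (400 mJ/cm2 as the first dose), and Argonaute (AGO), the protein that carries microRNAs, was immunoprecipitated from the lysate. RNA recovered with AGO was amplified from small amounts and hybridised to 1 expression array per sample. A signal is therefore a level of AGO-bound RNA, and without input RNA the binding and the amount of a transcript cannot be told apart. The labels number the biological replicates 1 to 3 in each group without naming animals or cultures, so p-values measure only the spread between these arrays, which may be technical, and their small number limits the precision.

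The unfolded protein response has 3 sensors in the membrane of the endoplasmic reticulum. IRE1 splices the mRNA of Xbp1, PERK raises translation of ATF4 and through it CHOP, the product of Ddit3, and ATF6 is released by cleavage to enter the nucleus. Their target genes encode chaperones such as BiP (Hspa5), enzymes that form disulfide bonds, and the machinery that sends misfolded proteins to the proteasome. The heat shock response is driven by HSF1, which induces cytosolic chaperones of the HSP70, HSP90 and J-domain families, and also the mitochondrial chaperonin HSP60 with its partner HSP10. T cells that are activated enlarge their secretory and biosynthetic machinery, and parts of both programmes are known to be engaged in that process.

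Binding motifs of these programmes were found in the promoters of some of the measured genes. Promoters of RefSeq (mouse build GRCm38.p6) from 250 bases before to 50 bases after each start were found for 29 of the 33 genes. The first motif searched, on both strands, was the endoplasmic reticulum stress element, CCAAT and CCACG with 9 bases between them, which ATF6 binds together with NF-Y. It was found in 7 of 20 genes of the endoplasmic reticulum branch and in 0 of 9 cytosolic and mitochondrial chaperones. Over all 32851 promoters the share was 0.119%. A gene counted where any of its promoters matched, so shares of genes and of promoters are not the same measure. The element was also found in 3 of 79 other genes of these pathways, Syvn1, Derl3 and Ero1b. The matches of the members are shown because the same letters recur upstream of several folding genes described below. Each line is read 5′ to 3′ on the strand of the motif, with the 2 motif parts in capitals.
Hspa5 (chr2:34772015-34772053, plus strand): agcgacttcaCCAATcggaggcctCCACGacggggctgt
Hsp90b1 (chr10:86705523-86705561, plus strand): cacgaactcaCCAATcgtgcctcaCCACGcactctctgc
Hsp90b1 (chr10:86705628-86705666, minus strand): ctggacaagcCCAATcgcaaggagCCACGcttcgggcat
Calr (chr8:84847065-84847103, plus strand): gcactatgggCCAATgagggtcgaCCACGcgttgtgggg
Canx (chr11:50325790-50325828, minus strand): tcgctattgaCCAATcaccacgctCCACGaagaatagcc
Pdia6 (chr12:17266481-17266519, plus strand): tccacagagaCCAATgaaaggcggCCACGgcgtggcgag
Dnajc3 (chr14:118937817-118937855, plus strand): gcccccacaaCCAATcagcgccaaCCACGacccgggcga
Creld2 (chr15:88819510-88819548, minus strand): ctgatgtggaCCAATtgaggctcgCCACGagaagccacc

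A second form of the element, ATTGG and CCACG with 1 base between them, was found in 0.0365% of promoters and in 1 member, Herpud1. The C/EBP-ATF response element, searched as TGATGNAA, is the site through which ATF4 acts on amino acid genes. It was found in 3.97% of promoters and in 4 of the 20 endoplasmic reticulum genes with a promoter, Herpud1, Asns, Trib3 (after its start) and Chac1. It was also found in 9 of 79 other genes of these pathways, among them Vldlr and Slc7a11, whose values are given further on. The matches of Herpud1, Asns, Chac1 and Vldlr are shown with the fixed letters in capitals.
Herpud1, second form of the stress element (chr8:94386367-94386397, plus strand): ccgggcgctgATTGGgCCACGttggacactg
Herpud1, C/EBP-ATF element (chr8:94386305-94386336, minus strand): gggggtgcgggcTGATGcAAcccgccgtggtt
Asns (chr6:7693213-7693244, minus strand): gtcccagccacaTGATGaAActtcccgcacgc
Chac1 (chr2:119351037-119351068, minus strand): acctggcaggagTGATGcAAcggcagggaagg
Vldlr (chr19:27216808-27216839, minus strand): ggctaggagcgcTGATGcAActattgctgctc

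The heat shock element, searched as GAA, TTC and GAA each 2 bases apart, is the site HSF1 binds. It was found in 0.603% of promoters and in 3 of 9 cytosolic and mitochondrial members, Hsph1 (after its start), Hspd1 and Hspe1. The others, among them Hspa1a, Hspa1b and Dnajb1, had no full match. That says only that these letters, with every unit complete, are not in the window. Hspd1 and Hspe1 are transcribed away from each other on chromosome 1 with 215 bases between their starts, and their element lies in the stretch they share. That whole stretch is shown on the plus strand, with the repeated units of the element in capitals.
Hspd1 and Hspe1 (chr1:55087933-55088147, plus strand): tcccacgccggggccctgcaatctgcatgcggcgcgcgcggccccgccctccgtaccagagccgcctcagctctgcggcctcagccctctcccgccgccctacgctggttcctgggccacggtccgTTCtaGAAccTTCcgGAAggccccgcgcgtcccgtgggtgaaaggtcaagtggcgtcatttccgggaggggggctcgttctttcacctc

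Hspa1a and Hspa1b, the stress-inducible HSP70 genes, are neighbours on chromosome 17 with near-identical promoters. Of the 250 bases before their starts, 247 were identical (98.8%). The 120 bases next to each start are shown so that the shared control region can be seen beside the values of both genes, and the capital marks the base at which the 2 stretches differ.
Hspa1a (chr17:34972157-34972276, minus strand): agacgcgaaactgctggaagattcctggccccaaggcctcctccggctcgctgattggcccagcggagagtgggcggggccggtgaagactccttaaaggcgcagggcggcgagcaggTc
Hspa1b (chr17:34959239-34959358, minus strand): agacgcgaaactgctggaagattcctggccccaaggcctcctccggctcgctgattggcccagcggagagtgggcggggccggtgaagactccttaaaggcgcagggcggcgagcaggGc

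Some properties of the whole set of arrays bear on every value below. Arrays of the same replicate number deviated together (r from 0.811 to 0.921 across genes over 9 pairs), so differences are also given within each number. Between arrays of 1 number, 17.9% to 49% of genes had exactly equal deposited values. A difference of 0.00 can thus come from identical entries in the table, which is not the same as a measurement of no difference. Of 9 such pairs of arrays per gene, 13 of the 33 members had no equal pair, 14 had 1 and 6 had at least 3. All 11 measured T cell markers were above the array median on all 9 arrays. Markers of macrophages and monocytes had a mean log2 signal of 6.41 to 7.62 on syngeneic arrays, 5.10 to 5.96 on allogeneic arrays and 4.24 to 5.86 on antibody arrays. Dendritic cell markers averaged 7.70 to 8.77, 7.51 to 8.71 and 7.18 to 7.40 in the same order. All 11 macrophage markers and 10 of 11 dendritic cell markers had lower means than in syngeneic culture in each of the other 2 cultures, and 3 of the macrophage markers were above the array median on every array. Stromal cell markers averaged 10.05, 8.60 and 8.20 on the syngeneic, allogeneic and antibody arrays of number 2. On all other arrays they averaged 4.21 to 4.53, and their part in the values of number 2 was not tested. In purified but mixed cells, fewer cells of a type and less RNA per cell cannot be told apart.

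**Figure D1:**
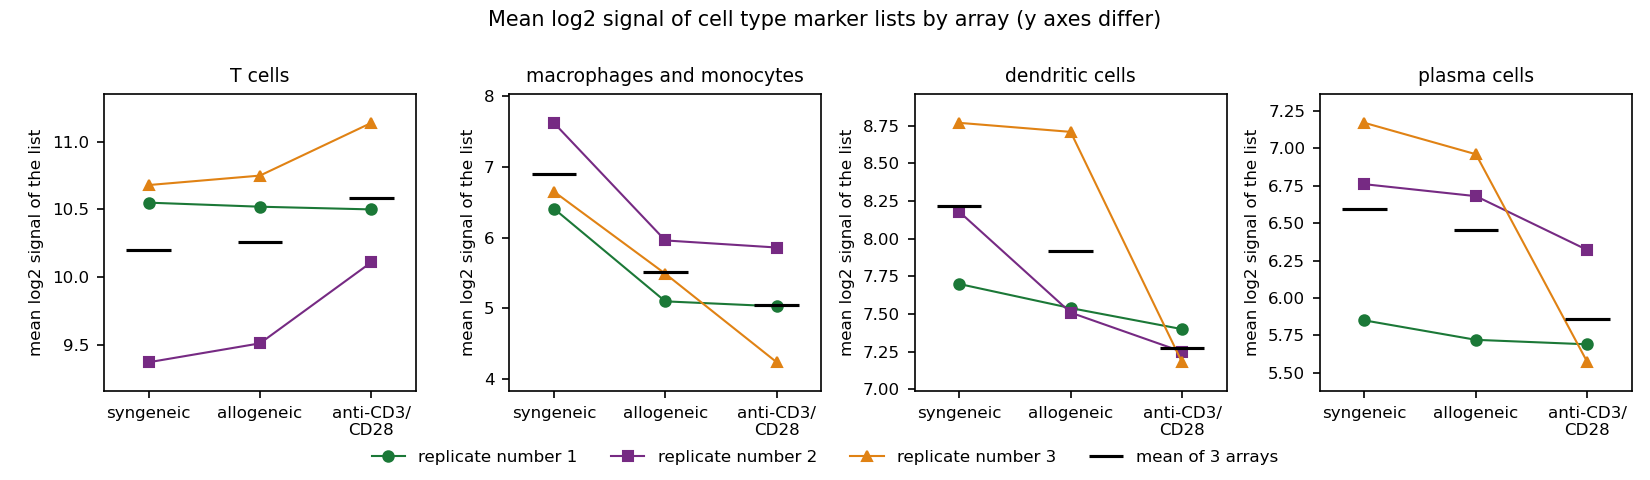
Mean log2 signal (y axis) of the marker lists of T cells, macrophages and monocytes, dendritic cells and plasma cells on each of the 9 arrays (x axis, culture), with lines joining arrays of 1 replicate number and bars at the mean of 3 arrays. The macrophage list is highest in syngeneic culture within all 3 numbers (6.41 to 7.62), and the dendritic cell list lies between 7.18 and 7.40 on the antibody arrays.

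No member passed the test in any of the 3 comparisons. In limma with 1 mean per group, 0 of 33 members had an adjusted p under 0.05 and every adjusted p was 1. At an unadjusted p under 0.05, limma gave 0 members for allogeneic against syngeneic culture, 1 for antibody against syngeneic culture (Dnajb9) and 0 for allogeneic against antibody culture. The same test called 0% of all 18193 genes in each of the 3 comparisons, in which 27, 156 and 24 genes had an unadjusted p under 0.05. With the replicate number as a block, 0 members were called. An unadjusted p under 0.05 was found in that fit for 2, 2 and 1 members, against 825, 1236 and 205 of all 18193 genes. With the number as a random block, 0 members were called either, with a smallest adjusted p of 0.0902 (Dnajb9, antibody against syngeneic culture), while 0.165% of all genes were called in that comparison.

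The members as a whole had median differences near those of all genes. Their median log2 difference was 0.07 for allogeneic minus syngeneic, −0.04 for antibody minus syngeneic and 0.08 for allogeneic minus antibody culture, against 0.03, 0.00 and 0.04 over all genes. For the 22 endoplasmic reticulum genes the medians were 0.10, −0.02 and 0.10. For the 11 cytosolic and mitochondrial chaperones they were −0.04, −0.05 and 0.03. Neither branch thus had a median more than 0.10 away from 0. The medians also differed between replicate numbers. For the endoplasmic reticulum genes in allogeneic minus syngeneic culture, the median was 0.19, −0.10 and −0.02 within numbers 1, 2 and 3, and for the cytosolic and mitochondrial genes it was −0.01, −0.14 and 0.31.

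**Figure D2:**
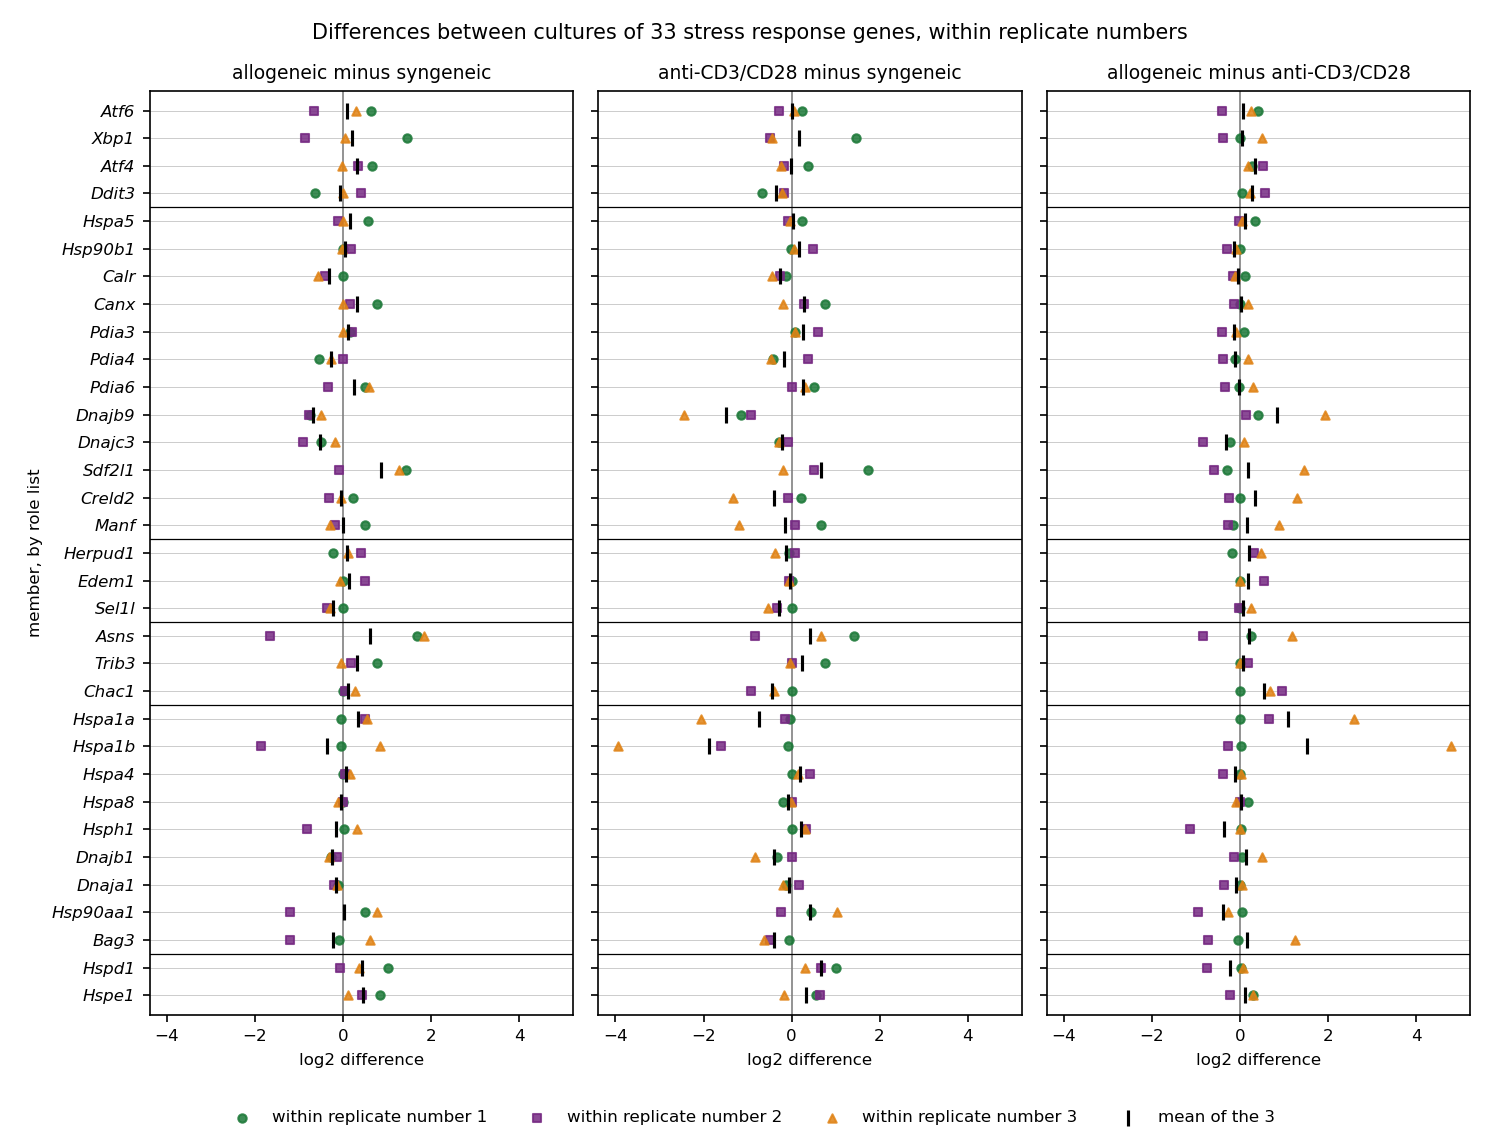
Log2 differences (x axis) of the 33 measured members (y axis, grouped by role) in the 3 comparisons, with a symbol for the difference within each replicate number and a bar for the mean of the 3. Most members lie near 0 or on both sides of it, and the antibody minus syngeneic panel shows Dnajb9 (mean −1.50) and Hspa1b (mean −1.88) farthest to the left.

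A few members kept 1 direction within all 3 replicate numbers. In allogeneic against syngeneic culture, 1 of 33 members (3.03%) was higher within all 3 numbers against 7.29% of all genes, and 4 (12.1%) were lower against 7.96%. In antibody against syngeneic culture, 2 members (6.06%) were higher within all 3 numbers against 7.80% of genes. Lower within all 3 numbers there were 7 members (21.2%) against 9.15% of genes: Ddit3, Calr, Dnajb9, Dnajc3, Hspa1a, Hspa1b and Bag3. Between allogeneic and antibody culture, 3 members (9.09%) were higher in allogeneic culture within all 3 numbers against 4.39% of genes, and 0 were lower against 2.58%. Exact equality counted as no sign, and members had fewer such ties than all genes. Antibody against syngeneic culture had 5, 4 and 0 tied members of 33 by number, against 34.2%, 29.5% and 22.3% of genes. Shares of members and of all genes are therefore not directly comparable. Hspa1a, Hspa1b and Bag3 differed by only −0.04, −0.08 and −0.05 in number 1 of that comparison. These comparisons share arrays and the genes move together, so the counts are a description.

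Groups that did not overlap at all were found for 2 members, both in antibody against syngeneic culture. Hspd1 was higher and Dnajb9 lower, 1 member (3.03%) in each direction, against 0.412% of all genes higher and 1.52% lower without overlap. In allogeneic against syngeneic culture, 0 members had groups apart, against 0.192% of genes higher and 0.451% lower. In allogeneic against antibody culture the count was also 0, against 0.269% higher and 0.0550% lower.

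Among the transcription factors, arrays of 1 culture differed widely between replicate numbers. Values here and below are log2 signals in the order of replicate numbers 1, 2 and 3. Xbp1, which activates folding and secretion genes after its mRNA is spliced by IRE1, read 7.10, 8.19 and 9.61 in syngeneic culture, 8.56, 7.32 and 9.65 in allogeneic culture and 8.56, 7.70 and 9.16 with antibodies. Its syngeneic array of number 1 was 1.46 below both other arrays of that number, while in number 2 the syngeneic array was the highest. The groups overlapped. The log2 difference was 0.21 ± 0.78 (SE of the limma fit, 3 arrays per group) for allogeneic minus syngeneic culture. For antibody minus syngeneic culture it was 0.17 ± 0.78. Of the 4 Xbp1 probe sets, only 2 had the sign of the first difference and 1 that of the second. The SE given after ± throughout is that of the fit without the replicate number, so it includes the spread between numbers. With the number as a random block, which had a correlation of 0.932 within numbers, the SE of both Xbp1 differences was 0.39. How far the SE narrowed differed between members. It went from 0.61 to 0.19 for Atf4 and from 0.48 to 0.10 for Hspa8, but only from 0.80 to 0.54 for Asns. Spliced and unspliced Xbp1 were not separated here. Atf6 read 5.43, 7.23 and 8.20 in syngeneic, 6.05, 6.55 and 8.49 in allogeneic and 5.66, 6.95 and 8.25 in antibody culture. Each number thus kept its own level, and the group means of Atf6 were 6.95, 7.03 and 6.95.

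The factors of the PERK branch had mean differences between cultures of −0.35 to 0.33. Atf4, whose protein switches on amino acid supply genes, read 10.49, 10.05 and 9.24 in syngeneic, 11.15, 10.39 and 9.21 in allogeneic and 10.87, 9.87 and 9.02 in antibody culture. It was higher in allogeneic than in antibody culture within all 3 numbers, by 0.28, 0.53 and 0.19, with a mean difference of 0.33 ± 0.61 and the same sign in 3 of 3 probe sets. ATF4 is governed mainly by translation, which these arrays do not measure. Ddit3, which encodes CHOP, a factor of prolonged stress and cell death, read 7.90, 8.31 and 8.18 in syngeneic, 7.26, 8.71 and 8.18 in allogeneic and 7.22, 8.15 and 7.97 in antibody culture. It was lower with antibodies than in syngeneic culture within all 3 numbers, with differences of −0.68, −0.16 and −0.22 and a mean of −0.35 ± 0.59, but only 1 of its 2 probe sets had that sign. The groups overlapped for both genes.

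**Figure D3:**
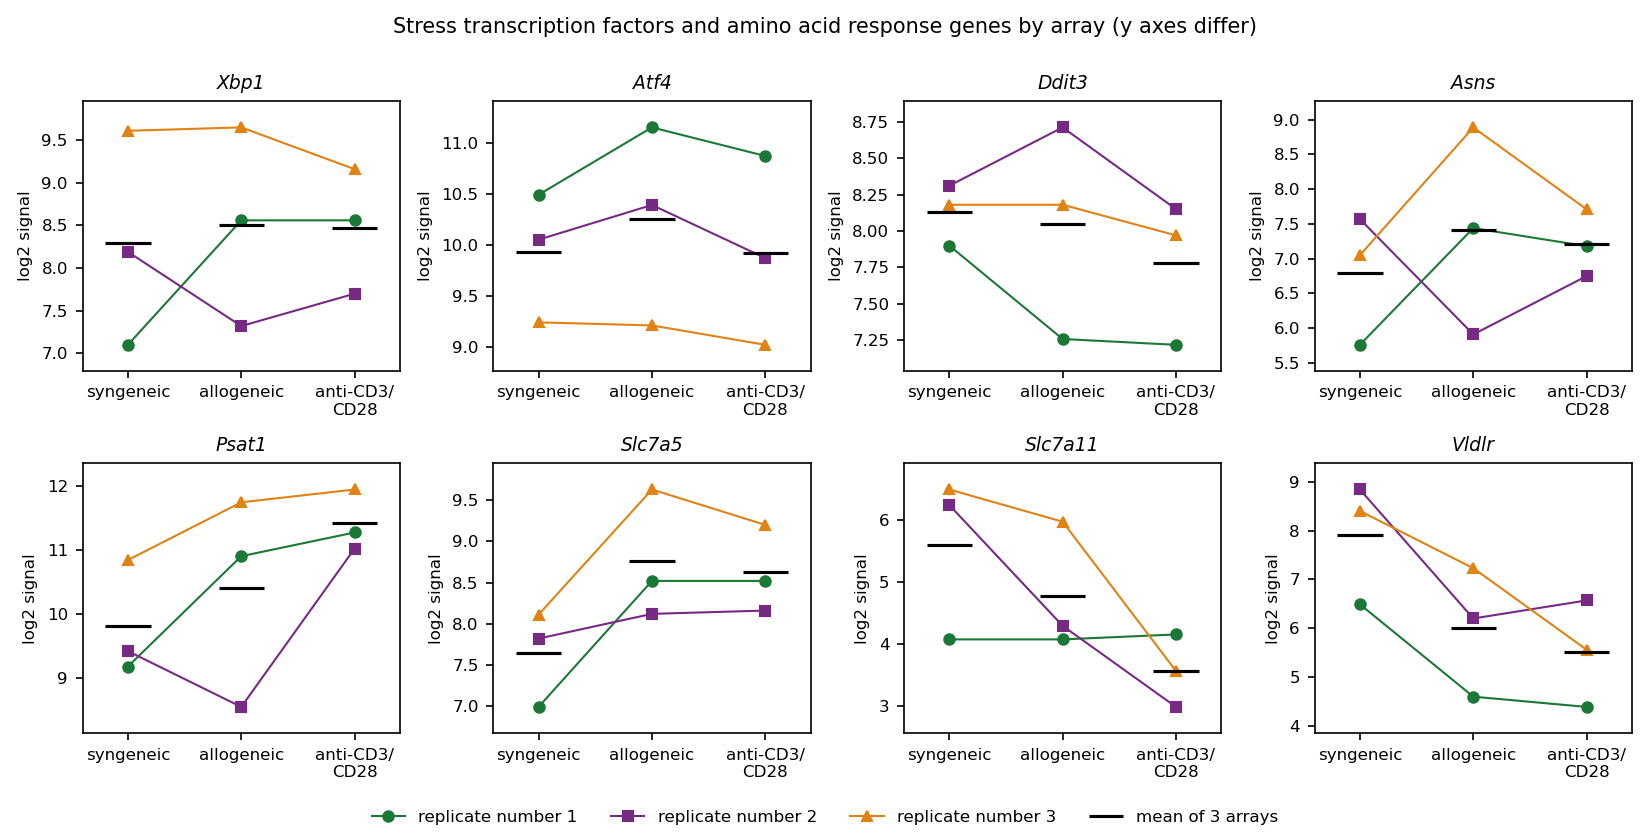
Log2 signal (y axis, own range per panel) of Xbp1, Atf4, Ddit3, Asns, Psat1, Slc7a5, Slc7a11 and Vldlr on each array by culture (x axis), with lines joining arrays of 1 replicate number and bars at the mean of 3 arrays. Slc7a5 and Psat1 lie lowest in the syngeneic arrays and Vldlr highest there within each number, except Psat1 in number 2, where the allogeneic array (8.55) is the lowest, while Xbp1 and Asns move in opposite directions between numbers 1 and 2.

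BiP and the abundant folding enzymes of the endoplasmic reticulum had mean differences between cultures that ran from −0.32 (Calr) to 0.31 (Canx). Hspa5, the master chaperone of this compartment, read 11.34, 11.24 and 11.09 in syngeneic, 11.91, 11.13 and 11.09 in allogeneic and 11.57, 11.15 and 11.05 in antibody culture. Only number 1 showed a higher allogeneic signal, and the mean differences were 0.15 ± 0.34 and 0.03 ± 0.34 against syngeneic culture. Calr, the calcium-binding chaperone calreticulin, read 10.80, 11.43 and 11.23 in syngeneic, 10.80, 11.02 and 10.68 in allogeneic and 10.67, 11.17 and 10.79 in antibody culture. It was lower with antibodies than in syngeneic culture within all 3 numbers, by −0.27 ± 0.34 on average, with overlapping groups. Hsp90b1, the HSP90 of this compartment, had group means of 11.04, 11.09 and 11.21. Canx, the membrane lectin calnexin, had means of 10.04, 10.34 and 10.33, and its 2 differences against syngeneic culture rested mostly on number 1 (0.76 in each). The disulfide isomerases Pdia3, Pdia4 and Pdia6 differed by 0.12, −0.28 and 0.25 in allogeneic minus syngeneic and by 0.25, −0.17 and 0.27 in antibody minus syngeneic culture. Of these 3, Pdia3 was higher with antibodies within all 3 numbers, by 0.07, 0.61 and 0.08.

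Dnajb9 was the member whose antibody arrays all lay below its syngeneic arrays. Its product, ERdj4, is a J-domain partner of BiP that helps deliver misfolded proteins for degradation and is a target of XBP1. It read 8.04, 8.89 and 9.57 in syngeneic, 7.29, 8.12 and 9.06 in allogeneic and 6.88, 7.98 and 7.13 in antibody culture. Within each number the order was syngeneic, allogeneic, antibody. Antibody minus syngeneic culture gave −1.50 ± 0.66 (−1.15, −0.91 and −2.44 by number), with an adjusted p of 1 in limma, 0.684 with the block and 0.0902 with the random block. Allogeneic minus syngeneic culture gave −0.68 ± 0.66 (−0.75, −0.77 and −0.51), and allogeneic minus antibody culture 0.83 ± 0.66 (0.40, 0.14 and 1.93). Dnajb9 had 1 probe set and no exactly equal pair. Marker lists of some other cells were also lower with antibodies than in syngeneic culture within each number. The 4 plasma cell markers, whose cells hold a large endoplasmic reticulum, averaged 5.85, 6.76 and 7.17 in syngeneic culture. They averaged 5.72, 6.68 and 6.96 in allogeneic and 5.69, 6.32 and 5.57 in antibody culture. Of these 4, only Jchain was lower with antibodies within all 3 numbers, and only Jchain was above the array median on every array. The macrophage list averaged 6.41, 7.62 and 6.65, then 5.10, 5.96 and 5.49, then 5.03, 5.86 and 4.24. Their part in the result was not tested.

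**Figure D4:**
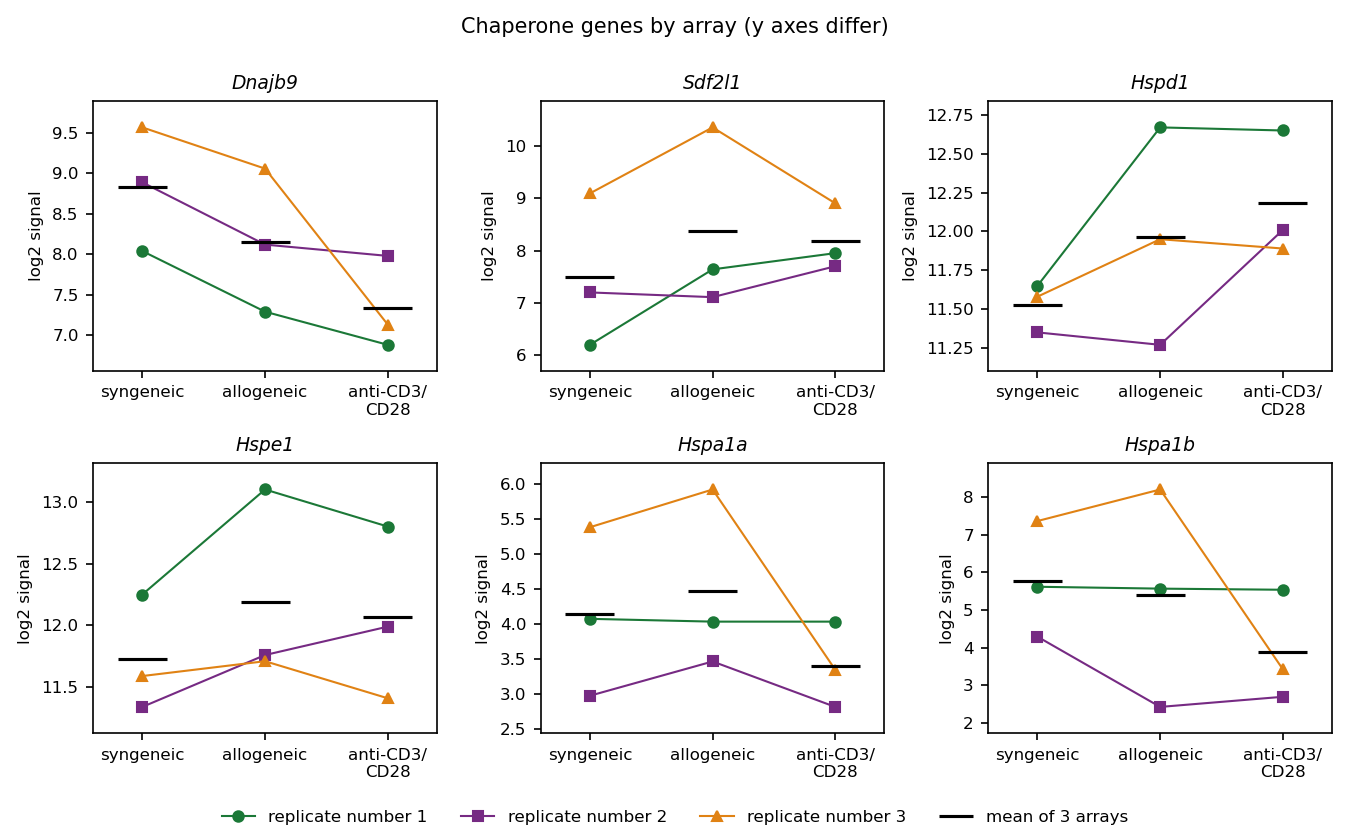
Log2 signal (y axis, own range per panel) of Dnajb9, Sdf2l1, Hspd1, Hspe1, Hspa1a and Hspa1b on each array by culture (x axis), with lines joining arrays of 1 replicate number and bars at the mean of 3 arrays. Dnajb9 descends from syngeneic to antibody culture within every number, Hspd1 has its 3 antibody arrays (11.89 to 12.65) above its 3 syngeneic arrays (11.35 to 11.65), Hspa1a has its widest gaps between cultures in number 3, and Hspa1b has wide gaps in numbers 2 (2.42 to 4.29) and 3 (3.42 to 8.21).

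The other chaperone partners gave mixed patterns. Dnajc3, a J-domain protein of the endoplasmic reticulum also known as P58IPK, read 9.92, 9.25 and 10.71 in syngeneic, 9.43, 8.35 and 10.53 in allogeneic and 9.65, 9.18 and 10.42 in antibody culture. It was lower than in syngeneic culture within all 3 numbers in both comparisons, by −0.53 ± 0.62 and −0.21 ± 0.62, yet the groups overlapped and 3 of 5 probe sets had that sign. Sdf2l1, a partner of BiP and its J-domain proteins, read 6.20, 7.20 and 9.09 in syngeneic, 7.64, 7.11 and 10.35 in allogeneic and 7.95, 7.70 and 8.90 in antibody culture. Its mean differences against syngeneic culture were 0.87 ± 0.92 and 0.68 ± 0.92, but number 2 in the first and number 3 in the second had the other sign. The first was −0.12 without the allogeneic array of number 3 and 1.66 without the syngeneic array of number 3, and the second ran from 0.04 to 1.48 with 1 array left out (0.04 without the syngeneic array of number 1). Creld2, a resident stress protein, read 10.80, 9.55 and 10.52 in syngeneic, 11.02, 9.22 and 10.47 in allogeneic and 11.02, 9.47 and 9.17 in antibody culture. Its antibody array of number 3 differed from the syngeneic array of that number by −1.34, and numbers 1 and 2 did not share that gap. Manf, a secreted stress protein, had the same layout, with antibody minus syngeneic differences of 0.66, 0.08 and −1.19.

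Genes with and without a stress element had median differences near 0. Of the 20 endoplasmic reticulum genes with a promoter, the 8 with either form of the element had median differences of 0.07, −0.04 and 0.00 in the 3 comparisons, and the 12 without had 0.13, −0.02 and 0.18. Dnajb9 and Sdf2l1 had no match in this window, which says only that these letters are not in it.

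The degradation factors had mean differences between cultures of −0.29 to 0.21. Herpud1, which assembles the ubiquitin ligase complex of the membrane, read 6.51, 6.99 and 8.65 in syngeneic, 6.28, 7.39 and 8.76 in allogeneic and 6.45, 7.07 and 8.28 in antibody culture. The spread between numbers was over 2 on the log2 scale in syngeneic culture, while the culture means were 7.38, 7.48 and 7.27. Edem1, a lectin that picks glycoproteins for degradation, read 10.80, 9.93 and 10.64 in syngeneic, 10.80, 10.41 and 10.58 in allogeneic and 10.80, 9.87 and 10.57 in antibody culture. Its 3 arrays of number 1 were exactly equal. Sel1l, the scaffold of the HRD1 ligase, read 8.22, 8.90 and 10.30 in syngeneic, 8.22, 8.54 and 10.02 in allogeneic and 8.22, 8.56 and 9.76 in antibody culture. Numbers 2 and 3 differed from syngeneic culture by −0.37 and −0.29 in allogeneic and by −0.34 and −0.54 in antibody culture, and number 1 was again exactly equal.

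The 3 targets of ATF4 and CHOP did not move together. Asns, asparagine synthetase, read 5.76, 7.57 and 7.05 in syngeneic, 7.44, 5.91 and 8.89 in allogeneic and 7.18, 6.75 and 7.71 in antibody culture. Numbers 1 and 3 were higher in both other cultures than in syngeneic culture and number 2 was lower in both, with mean differences of 0.62 ± 0.80 and 0.42 ± 0.80. Trib3, a pseudokinase induced by CHOP, read 6.76, 7.24 and 7.42 in syngeneic, 7.53, 7.43 and 7.38 in allogeneic and 7.53, 7.24 and 7.38 in antibody culture. Only its syngeneic array of number 1 stood apart, and 3 of its 9 pairs within numbers were exactly equal. Chac1, which degrades glutathione, read 4.52, 5.81 and 5.48 in syngeneic, 4.52, 5.86 and 5.76 in allogeneic and 4.52, 4.90 and 5.08 in antibody culture. It was dim, not above the median of 4 arrays, and the largest of its mean differences was 0.55 ± 0.60 for allogeneic minus antibody culture.

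The inducible HSP70 genes, which rise steeply when HSF1 is active, were among the dimmest members. Hspa1b read 5.62, 4.29 and 7.37 in syngeneic, 5.57, 2.42 and 8.21 in allogeneic and 5.54, 2.69 and 3.42 in antibody culture. Hspa1a read 4.07, 2.97 and 5.38, then 4.03, 3.46 and 5.92, then 4.03, 2.81 and 3.34 in the same order. In number 2 Hspa1b was highest in syngeneic culture, with differences of −1.87 in allogeneic and −1.60 in antibody culture. In number 3 both genes were higher in the 2 co-cultures than with antibodies. Antibody minus syngeneic culture was −3.95 and −2.05 there for Hspa1b and Hspa1a, and allogeneic minus antibody culture 4.79 and 2.58, while in number 1 all their differences lay between −0.08 and 0.03. Antibody minus syngeneic culture gave −1.88 ± 1.26 for Hspa1b and −0.75 ± 0.73 for Hspa1a, lower within all 3 numbers but with overlapping groups. On 7 arrays Hspa1a did not exceed the array median, and on 4 arrays Hspa1b did not. These genes are known as near-identical copies, so their signals are uncertain as separate values. Sharing of probes was not tested. The dendritic cell list was also lower with antibodies in number 3, at 8.77, 8.71 and 7.18 in syngeneic, allogeneic and antibody culture. So were the marker lists of granulocytes (5.90, 6.00 and 4.26), plasma cells (7.17, 6.96 and 5.57) and macrophages (6.65, 5.49 and 4.24). Lists of T cells, B cells and stromal cells were higher with antibodies there. The part of these cells in the result was not tested.

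The cytosolic chaperone genes Hspa8, Hspa4, Hsph1 and Hsp90aa1 had bright signals. Hspa8, the constitutive HSP70, had culture means of 13.01, 12.97 and 12.94, with exactly equal values in all 3 arrays of number 2. Hspa4 and Hsph1, nucleotide exchange factors of the HSP110 family, differed by 0.07 and −0.16 in allogeneic minus syngeneic and by 0.19 and 0.21 in antibody minus syngeneic culture. Hsp90aa1, the inducible cytosolic HSP90, read 11.21, 12.02 and 11.07 in syngeneic, 11.70, 10.82 and 11.83 in allogeneic and 11.65, 11.78 and 12.10 in antibody culture. It was higher than in syngeneic culture in numbers 1 and 3 and lower in number 2 in both comparisons, with mean differences of 0.02 ± 0.37 and 0.41 ± 0.37. None of these 4 genes had groups apart.

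J-domain proteins of the cytosol feed clients to HSP70. Dnajb1 read 11.73, 10.92 and 10.88 in syngeneic, 11.46, 10.78 and 10.55 in allogeneic and 11.41, 10.92 and 10.04 in antibody culture. Allogeneic minus syngeneic culture gave −0.25 ± 0.44, with the same sign within all 3 numbers but in only 1 of 2 probe sets. Dnaja1 had the same sign within all 3 numbers and in 3 of 3 probe sets, at −0.12, −0.20 and −0.14 (mean −0.15 ± 0.51). Bag3, a co-chaperone that links HSP70 to autophagy, read 4.20, 5.44 and 5.00 in syngeneic, 4.11, 4.24 and 5.61 in allogeneic and 4.15, 4.96 and 4.37 in antibody culture. It did not exceed the median of 7 arrays, and its mean differences against syngeneic culture were −0.23 ± 0.59 and −0.39 ± 0.59.

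The mitochondrial chaperonin genes share the promoter stretch shown above, and neither passed the test in any comparison. Hspd1, the HSP60 subunit, read 11.65, 11.35 and 11.58 in syngeneic, 12.67, 11.27 and 11.95 in allogeneic and 12.65, 12.01 and 11.89 in antibody culture. The antibody arrays all lay above the syngeneic arrays, by 0.66 ± 0.36 on average (1.00, 0.66 and 0.31 by number), with an adjusted p of 1 in limma and 0.188 with the random block. In allogeneic culture number 2 had the other sign, at −0.07, and the mean difference was 0.44 ± 0.36, or 0.09 without the allogeneic array of number 1. Hspe1, the HSP10 lid of the chaperonin, read 12.25, 11.34 and 11.59 in syngeneic, 13.10, 11.76 and 11.71 in allogeneic and 12.80, 11.99 and 11.41 in antibody culture. It was the only member higher in allogeneic than in syngeneic culture within all 3 numbers, by 0.84, 0.42 and 0.12 (mean 0.46 ± 0.44), in 2 of 2 probe sets, and the mean was 0.01 without the allogeneic array of number 1. With antibodies the difference was 0.34 ± 0.44, with number 3 at −0.18, and it was −0.03 without the antibody array of number 1.

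Of the other genes of these pathways, none was called by limma with group means alone. With the random block 1 was, Vldlr in antibody minus syngeneic culture, where 0.165% of all genes were called. Unadjusted p values under 0.05 in the group-mean fit numbered 1 for allogeneic minus syngeneic and 4 for antibody minus syngeneic culture. All were in the list of amino acid and integrated stress response genes, and over all 18193 genes there were 27 and 156. Genes named below for groups that did not overlap stand beside the shares of all genes given above. The 30 other unfolded protein response genes had median differences of −0.06, −0.09 and 0.10 in the 3 comparisons. The 24 amino acid and integrated stress response genes had medians of 0.11, 0.10 and 0.07. The 29 heat shock and cytosolic chaperone genes had 0.03, 0.20 and −0.10, and the 7 mitochondrial chaperones and proteases 0.05, 0.09 and −0.37. None of these medians passed 0.20 in either comparison with syngeneic culture.

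In the first of these lists, the genes with the smallest p values were mostly lower than in syngeneic culture. Sec24d, a coat component of vesicles leaving the endoplasmic reticulum, was lower within all 3 numbers in both comparisons, by −1.16 ± 0.75 and −0.96 ± 0.75. Ern1, the gene of IRE1, read 5.10, 7.97 and 6.81 in syngeneic, 4.59, 6.44 and 6.28 in allogeneic and 4.59, 6.13 and 5.71 in antibody culture. It was thus lower within all 3 numbers in both comparisons, by −0.86 ± 0.82 and −1.15 ± 0.82, in 2 of its 5 probe sets. Derl1, a channel component for degradation, read 10.13, 10.02 and 10.31 in syngeneic, 10.13, 9.25 and 9.92 in allogeneic and 9.64, 9.29 and 9.25 in antibody culture. Its antibody and syngeneic groups did not overlap (−0.76 ± 0.43, adjusted p of 0.132 in limma with the random block), in 3 of 4 probe sets. Derl3, of the same family, differed by 0.02 and −0.76. Ssr1, of the translocon, was higher by 0.86 ± 0.61 in allogeneic minus syngeneic culture, and Vcp, the segregase that extracts clients, differed by −0.61 ± 0.65 there, a mean that rested on number 2 (−1.63).

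Of these 4 lists, the amino acid and integrated stress response genes had the widest range of differences, from −2.40 to 1.59 in antibody minus syngeneic culture. Slc7a5, the large neutral amino acid transporter that T cells load on activation, read 6.99, 7.82 and 8.11 in syngeneic, 8.52, 8.12 and 9.63 in allogeneic and 8.52, 8.16 and 9.20 in antibody culture. Both stimulated groups lay wholly above the syngeneic group, by 1.12 ± 0.61 and 0.99 ± 0.61. Psat1, of serine synthesis, read 9.18, 9.42 and 10.84, then 10.90, 8.55 and 11.74, then 11.27, 11.02 and 11.94. Its antibody arrays lay above all syngeneic arrays (1.59 ± 0.71, in 2 of 2 probe sets), while the allogeneic array of number 2 was the lowest of the 9. Neither gene was called, with adjusted p values of 0.164 and 0.149 in limma with the random block for antibody minus syngeneic culture.

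Vldlr and Slc7a11 of the same list pointed the other way, but more of its genes were higher than lower with antibodies. Within all 3 numbers, 8 of 24 were higher and 3 lower than in syngeneic culture, against 7.80% and 9.15% of all genes. Groups lay apart for 3 higher genes and 0 lower ones, against 0.412% and 1.52% of all genes. These 3 were Slc7a5, Psat1 and Shmt2 (1.16 ± 0.53 for Shmt2, in 4 of 4 probe sets). Vldlr, a lipoprotein receptor, read 6.49, 8.84 and 8.40 in syngeneic, 4.60, 6.20 and 7.23 in allogeneic and 4.39, 6.57 and 5.56 in antibody culture. Antibody minus syngeneic culture gave −2.40 ± 0.88 in 6 of 6 probe sets, with an adjusted p of 1 in limma and 0.0265 with the random block, although the groups overlapped. Allogeneic minus syngeneic culture gave −1.90 ± 0.88 with the same sign in 6 of 6 probe sets. Slc7a11, the cystine transporter, read 4.07, 6.24 and 6.49 in syngeneic, 4.07, 4.29 and 5.97 in allogeneic and 4.15, 2.98 and 3.56 in antibody culture. Its difference of −2.04 ± 0.74 with antibodies came from numbers 2 and 3 alone, and on 6 arrays it did not exceed the array median. The macrophage list was also lower in both cultures, at −0.88 and −1.35 in the median of its 11 genes, and its part in these results was not tested.

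Among the cytosolic chaperone genes outside the list of members, the chaperonin subunits Cct5 and Cct8 were higher with antibodies than in syngeneic culture within all 3 numbers, by 0.67 ± 0.56 and 0.59 ± 0.50. The prefoldin subunit Pfdn2 had its allogeneic arrays (10.95, 10.34 and 11.04) wholly above its syngeneic arrays (10.03, 10.04 and 10.20), a difference of 0.68 ± 0.45. The HSP70 exchange factor Hspbp1 differed by 0.90 ± 1.13 there, with number 3 at 2.17 and number 1 exactly equal. Of the mitochondrial genes, Hspa9, the mitochondrial HSP70, read 10.53, 10.71 and 10.47 in syngeneic, 11.08, 9.89 and 10.90 in allogeneic and 11.30, 10.89 and 11.18 in antibody culture. Like Hspd1, it had antibody and syngeneic groups that did not overlap, by 0.55 ± 0.39 in 4 of 5 probe sets. Trap1, the mitochondrial HSP90, differed by 0.76 ± 0.63 with antibodies, with all 3 arrays of number 1 exactly equal. Clpx, of the matrix protease, and Dnaja3, a mitochondrial J-domain protein, differed by −0.54 ± 0.80 and −0.33 ± 0.65 in that comparison.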

How the data were processed

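The authors deposited log2 signals of 45101 probe sets on 9 arrays, made with RMA per the submitters' processing notes, and these were used without further normalization (array medians 4.58 to 5.67). Control probe sets (64) and those listed for several genes (932) or none (9160) were left out, and the brightest probe set represented each of 18193 genes. Whether arrays were normalized together is not given in the sources used here. Testing used limma 3.58.1, run in R 4.3.3 (1 mean per group, all 9 arrays, intensity trend, Benjamini-Hochberg adjustment over all genes, threshold 0.05), tested on simulated data. The members and lists were chosen with earlier results of these data known, so lists get counts and medians only. The text gives all 9 values for the members with the smallest p in each role list and comparison, and for Hspa5, Xbp1, Ddit3, Atf4, Hspa1a and Hspa1b always. Replicate numbers pair the arrays, with correlations of deviations from group means of 0.811 to 0.921 (9 pairs) within numbers. Across numbers and groups the correlations were −0.597 to −0.165 (18 pairs). Subtracting group means makes these negative once those within numbers are positive, so they add no separate support. Alternatives (11) included blocks, normalizations, filters, probe set rules and left-out arrays. Motifs were searched on both strands of RefSeq promoters (GRCm38.p6).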

Additional observations from a re-analysis of the deposited data

How the results depend on the processing

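No member was called under any of the 19 settings, and the smallest adjusted p of a member named with all its arrays was 0.0902 (limma, random block). The replicate block and the random block, which use the pairing, left every difference as it was and changed no call of a member. The fixed block gave Dnajb9 an adjusted p of 0.684 in limma (antibody minus syngeneic), and the random block called Vldlr. Median centring moved the median of all genes to 0.11 in antibody minus syngeneic and −0.11 in allogeneic minus antibody culture. The median of the cytosolic and mitochondrial members in antibody minus syngeneic culture was 0.07 with centring, 0.19 with dim genes left out and 0.15 with the mean of all probe sets. Leaving out 1 array leaves unpaired numbers in a difference. Then the medians ran from −0.15 to 0.26, −0.19 to 0.21 and −0.07 to 0.27 in the endoplasmic reticulum genes, and from −0.26 to 0.33, −0.22 to 0.39 and −0.44 to 0.33 in the others, in the order allogeneic minus syngeneic, antibody minus syngeneic and allogeneic minus antibody. Of 1299 values of named members under alternatives, 10 turned a direction shared by all 3 replicate numbers or by groups that did not overlap. A further 4 changed sign by more than 1 SE. Many of the 1299 values could not turn, so they are no measure of stability. Blocks, the intensity trend, the filter of dim genes and arrays of the culture not compared leave a difference as it was. Only differences with a shared direction or groups apart could count among the 10. The mean of all probe sets gave 0.03 for Dnajc3 (allogeneic minus syngeneic) and 0.15 for Ddit3 (antibody minus syngeneic). With 1 array left out, Dnajc3 ran from −1.07 to 0.01 in allogeneic minus syngeneic (0.01 without allogeneic array 2), Dnajb1 from −0.51 to 0.03 (0.03 without syngeneic array 1), and Dnajc3 in antibody minus syngeneic from −0.57 to 0.16 (0.16 without syngeneic array 3, 0.07 without antibody array 2). In allogeneic minus antibody culture Atf4 ran from −0.12 to 0.85 (−0.12 without allogeneic array 1 or antibody array 3) and Ddit3 from −0.06 to 0.67 (−0.06 without allogeneic array 2, −0.01 without antibody array 1). The 4 others were Sdf2l1 without allogeneic array 3 (−0.12 in allogeneic minus syngeneic, −0.80 in allogeneic minus antibody culture), Hspa1b without allogeneic array 2 (1.13 in allogeneic minus syngeneic) and Hspe1 without allogeneic array 1 (−0.33 in allogeneic minus antibody culture). Hspe1 ran from −0.03 to 0.67 in antibody minus syngeneic culture and Sdf2l1 from 0.04 to 1.48. In allogeneic minus syngeneic culture Hspe1 ran from 0.01 to 0.72, Hspd1 from 0.09 to 0.78 and Sdf2l1 from −0.12 to 1.66. The cause was not tested. Dnajb9 stayed between −1.90 and −1.13 and Hspd1 between 0.42 and 0.80 in antibody minus syngeneic culture. Dim members (Hspa1a, Bag3, Chac1) are limited by signal over background.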

Other observations

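Zfand2a, also called AIRAP, is a heat shock gene that adapts the proteasome to stress, and it was outside the members and lists. It was chosen after its values were seen. It read 9.57, 8.19 and 9.20 in syngeneic, 6.67, 5.43 and 8.49 in allogeneic and 6.51, 5.74 and 7.18 in antibody culture, in the order of replicate numbers 1, 2 and 3. All antibody arrays lay below all syngeneic arrays, by −2.51 ± 0.80 (SE, 3 arrays per group), in 4 of 4 probe sets. The adjusted p was 1 in limma, 0.677 with the replicate block and 0.0367 with the random block. Allogeneic minus syngeneic culture gave −2.12 ± 0.80, lower within all 3 numbers. The macrophage markers were lower in the same cultures (6.41 to 7.62 in syngeneic, 5.10 to 5.96 in allogeneic and 4.24 to 5.86 in antibody culture), and their part in the result was not tested.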
